A study of Homo sapiens with 8 samples.

Results

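Transcript levels in 293T cells depleted of the linker histone H1.2 were set directly against those in 293T cells depleted of Cul4A. 293T is a line derived from human embryonic kidney, and it stably makes T antigen of SV40. The comparison uses 4 of the 8 arrays of the series, chosen by their sample titles: 2 arrays of cells with a hairpin against H1.2 (H1.2sh) and 2 arrays of cells with a hairpin against Cul4A (Cul4Ash). The other 4 arrays hold cells with a hairpin against PAF1 (PAF1sh, 2 arrays) and cells with a control hairpin (NCsh, 2 arrays). All groups share the parent line, and the labels name 1 hairpin per target, with no second hairpin, no rescue and no time after transduction. They do not say whether replicate arrays came from separate cultures, so the spread behind each p-value is that between these arrays and could be technical.

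Linker histones bind where DNA enters and leaves the nucleosome, and H1.2 is among the variants that most human cells make. Cul4A is the scaffold of a ubiquitin ligase: with DDB1 as adaptor it holds a set of substrate receptors (DCAF proteins), and the replication licensing factor CDT1 and the cell cycle inhibitor p21 are among the proteins it marks for breakdown. H1.2 has been described as a binding partner of Cul4A and of the PAF1 complex at active genes. The direct comparison asks in which transcripts the 2 depletions differ, a question that the comparison of each with control cells leaves unanswered.

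Values are the deposited background-adjusted bead intensities, put on a log2 scale and quantile normalized, for 12300 genes. A difference is the mean of the H1.2sh arrays minus the mean of the Cul4Ash arrays on that scale, so 1 is 2-fold. Background left in the intensities can make differences of dim genes smaller than they are. The values of the dimmest probes did not always follow the order of their detection p-values, so the size of such differences is uncertain. A gene is called when its adjusted p in limma is under 0.05. Array names differ between the deposited tables. The scanner column named for H1.2sh replicate 2 carries the signals that the matrix gives to Cul4Ash replicate 2, and the scanner column named for Cul4Ash replicate 2 carries those that it gives to PAF1sh replicate 2. Groups here follow the matrix, whose columns are tied to the sample labels, and results are also given without both of these arrays. Array medians lay between 82.8 and 88.7 intensity units. The correlation over genes was 0.996 between the H1.2sh arrays, 0.996 between the Cul4Ash arrays and 0.985 to 0.986 between arrays of the 2 groups. Of 22 markers of other cell types, 7 passed the filter on dim probes. Their summed intensity was 821 to 823 in H1.2sh, 799 to 830 in Cul4Ash and 844 to 846 in NCsh, and 1 was called, the globin HBB, which was lower in H1.2sh (-0.31, adjusted p = 0.046).

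Each hairpin lowered its own target. H1-2, the gene of H1.2, had log2 intensities of 8.05 and 8.05 in H1.2sh, against 9.34 and 9.21 in Cul4Ash and a mean of 9.16 in NCsh. It was 2.34-fold lower in H1.2sh than in Cul4Ash (-1.22 ± 0.09, SE, adjusted p = 1.37e-05). CUL4A had 8.38 and 8.44 in H1.2sh, against 6.91 and 6.88 in Cul4Ash and a mean of 8.40 in NCsh. Its difference was 1.52 ± 0.08 (adjusted p = 3e-06, 2.86-fold higher in H1.2sh), and a second CUL4A probe, not above background on Cul4Ash replicate 1, gave 1.30. In both genes the arrays of the non-targeted depletion lay at the level of the control cells, so the labels of all 4 arrays fit their targets.

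CUL4B, the paralogue of CUL4A, differed by -0.21 ± 0.12 (adjusted p = 0.234) and the adaptor DDB1 by -0.04 ± 0.08 (adjusted p = 0.755). Neither passed the test. The linker histone genes H1-1 and H1-10 were the only others of 10 listed that passed the filter, at -0.12 ± 0.08 (adjusted p = 0.294) and -0.20 ± 0.08 (adjusted p = 0.0902). PAF1 differed by 0.17 ± 0.08 (adjusted p = 0.167). Of 36 genes of the CUL4 ligase, its receptors and the COP9 signalosome that controls cullins, 5 were called higher in H1.2sh, CUL4A included, and 7 lower (13.9% and 19.4%, against 10.2% and 12.4% of all genes). DET1, a substrate receptor, was lowest in this list (7.71 and 7.71 in H1.2sh, 8.45 and 8.58 in Cul4Ash, -0.80 ± 0.08, adjusted p = 8.97e-05), and a second DET1 probe gave -0.59. DDB2, the receptor that reads ultraviolet damage, was not well above background in H1.2sh and was at least 1.48-fold lower there (adjusted p = 0.00066). Such a bound, here and below, is the measured fold, with no allowance for background or for the spread between arrays. For DDB2 the 95% interval of the difference was -0.73 to -0.39. Leaving out H1.2sh replicate 1 gave 2 higher and 4 lower calls in this list, and leaving out H1.2sh replicate 2 gave 1 and 2. The same counts were 2 and 4 when Cul4Ash replicate 1 was dropped, and 1 and 3 when Cul4Ash replicate 2 was dropped.

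The 2 depletions differed widely. Of 12300 genes, 1257 were called higher in H1.2sh (10.2%) and 1524 lower (12.4%), together 22.6%. Most differences were small: the median absolute difference was 0.14 log2 units, and 114 called genes (0.927%) differed at least 2-fold, 42 higher and 72 lower. Arrays of the 2 groups did not overlap for 61.5% of genes, so the absence of overlap alone marks no gene. The number of calls depended on array number. It was 1541 without H1.2sh replicate 1, 1455 without H1.2sh replicate 2, 1562 when Cul4Ash replicate 1 was dropped, 1679 when Cul4Ash replicate 2 was dropped, and 868 (351 higher, 517 lower) without replicate 2 of both groups, while the count with at least 2-fold difference stayed between 110 and 120.

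**Figure D1:**
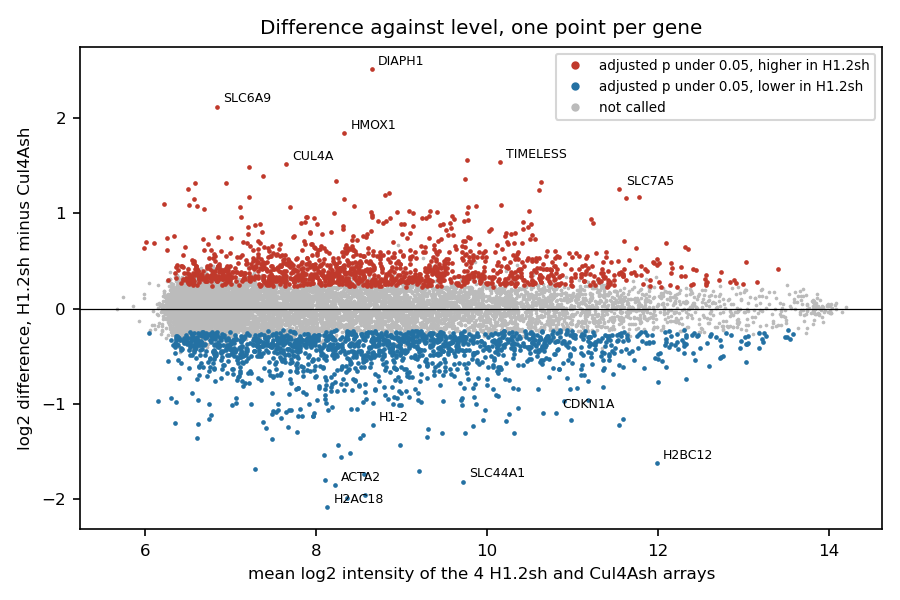
Log2 difference (H1.2sh minus Cul4Ash, vertical axis) against mean log2 intensity of the 4 arrays (horizontal axis), 1 point per gene for 12300 genes; red points were called higher in H1.2sh, blue points lower, grey points not called. Calls occur at all intensities, and DIAPH1 at 2.52 and H2AC18 at -2.09 mark the upper and lower ends.

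The gene with the largest positive difference was DIAPH1, which encodes the formin mDia1, a nucleator of straight actin filaments. Its log2 intensities were 9.86 and 9.96 in H1.2sh, against 7.31 and 7.48 in Cul4Ash and a mean of 9.72 in NCsh. The Cul4Ash arrays were the low ones, and the difference was 2.52 ± 0.08 (adjusted p = 3.01e-07, 5.74-fold), with 1.86 from a second probe. HMOX1, the haem-degrading enzyme haem oxygenase 1, had 9.15 and 9.36 in H1.2sh, 7.49 and 7.32 in Cul4Ash and a mean of 7.77 in NCsh. Here both groups left the control level, up in H1.2sh and down in Cul4Ash (1.85 ± 0.09, adjusted p = 2.12e-06, 3.6-fold). TIMELESS, a protein of the replication fork, had 10.91 and 10.94 in H1.2sh, against 9.37 and 9.40 in Cul4Ash and a mean of 10.81 in NCsh. It was 2.92-fold higher in H1.2sh (1.54 ± 0.07, adjusted p = 1.46e-06), with the H1.2sh arrays near the control cells. ME1, the cytosolic malic enzyme that makes NADPH, had 7.95 and 7.96 in H1.2sh, and 6.16 and 6.77 in Cul4Ash (1.49 ± 0.16, adjusted p = 0.000133). The Cul4Ash arrays differed from each other more than in the genes above, but stayed below both H1.2sh arrays.

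Others among the 15 largest positive differences were NEFM (neurofilament medium chain, 1.56 ± 0.08), HNRNPA1P33 (a pseudogene of the splicing factor HNRNPA1, 1.33 ± 0.11), TRIM6 (a ubiquitin ligase, 1.32 ± 0.08) and RBM47 (an RNA-binding protein, 1.32 ± 0.08). A second RBM47 probe, not above background on Cul4Ash replicate 1, gave 0.16. On that array the main probes of RBM47 (5.95, detection p-value 0.00909) and TRIM6 (6.25, detection p-value 0.0052) were above background. Both were dim there, which limits how their differences can be read. HNRNPA1 itself was higher by 0.95 ± 0.09 (adjusted p = 9.36e-05), with 0.95 from another probe, and its probes and that of the near-identical pseudogene may read each other's transcripts. AK4, a mitochondrial adenylate kinase, differed by 1.36 ± 0.08 with its brightest probe, but its other 3 probes, all detected on 7 of 7 scanner arrays, gave -0.19, -0.19 and -0.33, so the direction for this gene rests on 1 probe. With the mean over its probes AK4 lost its call.

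Also high in H1.2sh relative to Cul4Ash, 3 small RNA genes were in this group: SNORD17, a small nucleolar RNA that guides modification of ribosomal RNA, SCARNA13, a Cajal body RNA, and RNU4-2, the U4 RNA of the spliceosome. SNORD17 had 7.97 and 8.18 in H1.2sh, and 6.67 and 6.70 in Cul4Ash (1.39 ± 0.12, adjusted p = 4.19e-05). SCARNA13 had 8.85 and 8.95 in H1.2sh, and 7.55 and 7.58 in Cul4Ash (1.34 ± 0.09, adjusted p = 1.29e-05). RNU4-2 had 7.12 and 7.14 in H1.2sh, and 5.73 and 6.02 in Cul4Ash (1.26 ± 0.10, adjusted p = 2.66e-05). On Cul4Ash replicate 1 RNU4-2 was above background (detection p-value 0.0221). Its level was close to the lowest such log2 intensity there (5.70), which limits how the difference can be read. In each of the 3 genes the Cul4Ash arrays were low, and the H1.2sh arrays were not called against NCsh. These RNAs mostly carry no poly(A) tail, and kits of the kind named in the labels start copying at such tails, so level and tailing cannot be told apart.

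**Figure D2:**
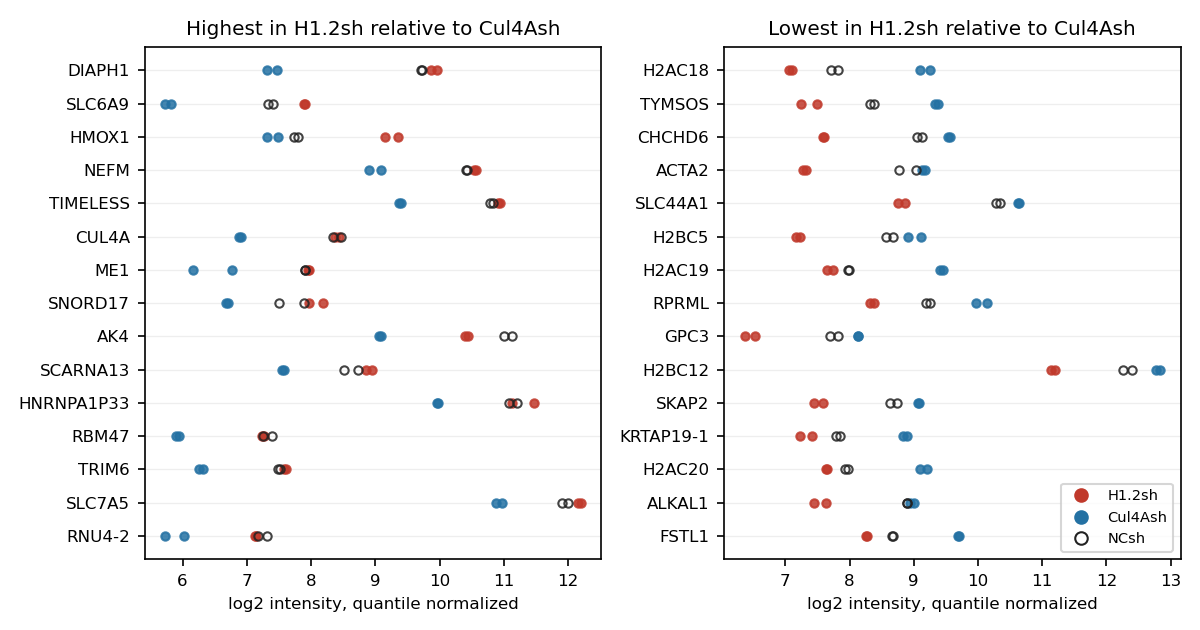
Log2 intensity on each array (horizontal axis) of the 15 genes with the largest positive (left) and the 15 with the largest negative difference (right) of H1.2sh minus Cul4Ash; each point is 1 array of H1.2sh (red), Cul4Ash (blue) or NCsh (open). For most genes on the left the red points lie near the open ones and the blue points are low, while on the right the red points are low for CHCHD6, ACTA2 and SLC44A1, and the blue points are high for H2AC18, H2AC19 and H2AC20.

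Among the genes with the largest negative differences, several were low in H1.2sh and closer to control levels in Cul4Ash. ACTA2, the smooth muscle actin, had 7.32 and 7.27 in H1.2sh, against 9.12 and 9.17 in Cul4Ash and a mean of 8.90 in NCsh (-1.85 ± 0.09, adjusted p = 2.12e-06, 3.61-fold lower). CHCHD6, a subunit of the complex that shapes mitochondrial cristae, had 7.59 and 7.60 in H1.2sh, and 9.54 and 9.57 in Cul4Ash (-1.96 ± 0.11, adjusted p = 2.89e-06). SLC44A1, a choline transporter, had 8.76 and 8.86 in H1.2sh, and 10.62 and 10.64 in Cul4Ash (-1.82 ± 0.07, adjusted p = 9.4e-07). In the last 2 genes Cul4Ash was also called above NCsh, by 0.46 and 0.32 (adjusted p = 0.0125 and 0.0149). A second SLC44A1 probe gave -0.70.

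GPC3, a cell surface heparan sulphate proteoglycan, had 6.53 and 6.36 in H1.2sh, and 8.14 and 8.13 in Cul4Ash (-1.69 ± 0.10, adjusted p = 3.75e-06). TYMSOS, an RNA transcribed opposite to TYMS, had 7.24 and 7.49 in H1.2sh, against 9.33 and 9.38 in Cul4Ash, on either side of a mean of 8.35 in NCsh (-1.99 ± 0.09, adjusted p = 1.46e-06). RPRML, a relative of the cell cycle gene reprimo, lay likewise on either side of NCsh (8.32 and 8.38 in H1.2sh, 10.13 and 9.98 in Cul4Ash, NCsh mean 9.22), with a difference of -1.71 ± 0.08. The remaining members of the 15 outside the histone genes were SKAP2, KRTAP19-1, ALKAL1 and FSTL1, at -1.56, -1.54, -1.44 and -1.43, with smaller values from a second probe of SKAP2 (-0.49) and of ALKAL1 (-0.26). FSTL1, a secreted glycoprotein, was high in Cul4Ash (9.69 and 9.70, NCsh mean 8.67), while ALKAL1, a ligand of the receptor ALK, was low in H1.2sh (7.44 and 7.64, NCsh mean 8.90).

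Replication-dependent core histone genes made up 5 of the 15 most negative differences. These genes lie in clusters and encode the bulk of the H2A, H2B, H3 and H4 that packs newly made DNA, with transcripts that mostly end in a stem-loop in place of a poly(A) tail. A TATA box, CCAAT boxes and, in many H2B genes, an octamer that binds OCT1 are known elements of their promoters. The 120 bases before the start are shown for 4 of the called genes, with the TATA box (TATAAA), the CCAAT box on either strand and the octamer (ATTTGCAT) in capitals. The sequences are from RefSeq (GRCh38.p14), 5′ to 3′ on the gene's strand.
H2AC18, chr1:149842751-149842870, minus strand: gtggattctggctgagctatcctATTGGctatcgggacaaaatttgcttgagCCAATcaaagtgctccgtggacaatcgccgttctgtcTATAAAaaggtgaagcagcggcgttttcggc
H2AC20, chr1:149886798-149886917, plus strand: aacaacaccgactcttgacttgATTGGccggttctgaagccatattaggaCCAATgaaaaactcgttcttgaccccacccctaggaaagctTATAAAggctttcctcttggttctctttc
H2BC5, chr6:26158001-26158120, plus strand: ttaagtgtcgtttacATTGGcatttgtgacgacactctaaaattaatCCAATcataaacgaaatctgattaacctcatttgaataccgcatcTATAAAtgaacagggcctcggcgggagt
H2BC12, chr6:27146859-27146978, minus strand: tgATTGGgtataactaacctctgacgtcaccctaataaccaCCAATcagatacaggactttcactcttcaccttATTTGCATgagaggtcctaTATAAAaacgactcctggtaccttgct

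All 4 stretches hold a TATAAA between -31 and -27 relative to the start and 2 CCAAT matches, 1 on each strand, and H2BC12 also holds the octamer at -46. No match overlaps another in these stretches. Searched on both strands of the 250 bases before the start, TATAAA was present in 20 of 25 measured core histone genes with a promoter sequence (80%), against 11.1% of 27305 promoters. CCAAT was present in 18 of 25 (72%), against 33% of all promoters. ATTTGCAT was found in 9 of 25 (36%), against 1.66%. It was in 7 of the 13 core histone genes called lower and in 2 of 12 not called. By histone type, it was in 5 of 6 measured H2B genes and 4 of 7 measured H2A genes, which hold all 9. A link with the call and one with histone type cannot be told apart here. The shares describe the letters in these windows and are no measure of binding.

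Of 60 listed core histone genes 27 passed the filter, and of these 13 were called lower in H1.2sh than in Cul4Ash (background 12.4%) and 0 higher (background 10.2%). Their median difference was -0.27, against 0.00 over all genes. As for the small RNAs above, most of these transcripts lack a poly(A) tail, so level and tailing cannot be told apart. H2AC18 had 7.06 and 7.10 in H1.2sh, against 9.09 and 9.25 in Cul4Ash and a mean of 7.77 in NCsh. It was 4.25-fold lower in H1.2sh (-2.09 ± 0.09, adjusted p = 1.16e-06), and a second probe gave -1.94. H2AC19, a near-identical copy whose probe may read the same transcripts, had 7.65 and 7.74 in H1.2sh, and 9.41 and 9.45 in Cul4Ash (-1.74 ± 0.08, adjusted p = 1.46e-06). H2AC20 had 7.63 and 7.65 in H1.2sh, and 9.21 and 9.10 in Cul4Ash (-1.52 ± 0.08, adjusted p = 2.25e-06). For these 3 genes the departure from the control cells was larger in Cul4Ash. H1.2sh minus NCsh was -0.69 for H2AC18 and -0.30 for H2AC19, and Cul4Ash minus NCsh was 1.40 and 1.44 for the same genes.

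H2BC5 and H2BC12 showed the other form, with most of the departure in H1.2sh. H2BC5 had 7.17 and 7.24 in H1.2sh, against 8.90 and 9.11 in Cul4Ash and a mean of 8.62 in NCsh (-1.81 ± 0.09, adjusted p = 1.98e-06), with -0.96 from its second probe. H2BC12 had 11.14 and 11.20 in H1.2sh, against 12.77 and 12.83 in Cul4Ash and a mean of 12.33 in NCsh (-1.63 ± 0.08, adjusted p = 1.86e-06), with -1.88 from its second probe. H2BC11 followed at -1.38 ± 0.10. Another 5 called genes were not well above background in H1.2sh and have only a bound: H2AC6 was at least 2.02-fold lower there (adjusted p = 7.58e-05), H2BC21 at least 1.91-fold (adjusted p = 7.36e-05), H3C10 at least 1.58-fold and H4C8 at least 1.21-fold, and H2BC18 had an adjusted p of 0.0266. The other calls were H4C14 (-0.45) and H2AC11 (-0.38). Among the 14 not called, H4C3 was bright and had 13.69 and 13.83 in H1.2sh, and 13.63 and 13.53 in Cul4Ash (0.18 ± 0.11, adjusted p = 0.29). Against NCsh, 13 of the 27 were called higher and 0 lower in Cul4Ash (background 11.0% and 9.60%), and 1 was called higher and 6 lower in H1.2sh (background 7.28% and 8.15%). These comparisons share the NCsh arrays. The count called lower was 11 or 12 with any single array left out, 11 without replicate 2 of both groups, and 8 where detection on all 7 scanner arrays was asked. Without Cul4Ash replicate 2, 2 core histone genes were called higher. As an array reads a whole culture, fewer cells making a transcript and less of it per cell cannot be told apart, here and for every gene below.

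**Figure D3:**
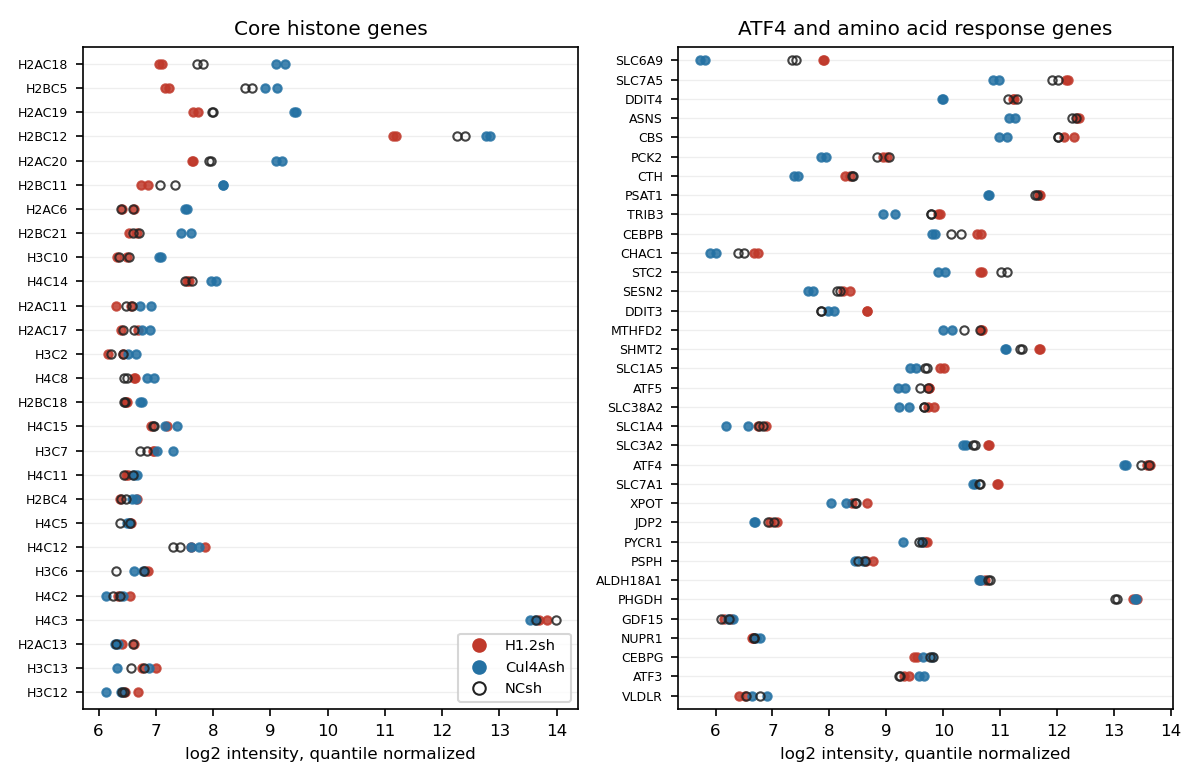
Log2 intensity on each array (horizontal axis) of the 27 measured core histone genes (left) and the 34 measured ATF4 and amino acid response genes (right), ordered by the difference of H1.2sh minus Cul4Ash; each point is 1 array of H1.2sh (red), Cul4Ash (blue) or NCsh (open). The red points of H2AC18, H2BC5 and H2BC12 lie below the blue ones without overlap, and in the right panel the blue points of SLC6A9, SLC7A5 and ASNS lie below both other groups.

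Genes of the amino acid response formed the list with the highest share of calls towards H1.2sh. The lists were chosen with earlier results of these data known, so this rank is descriptive. ATF4 is a transcription factor that is made when amino acids run short or unfolded proteins build up, and its targets take up and synthesise amino acids and charge transfer RNA. Of 39 listed genes 34 passed the filter, of which 24 were called higher in H1.2sh than in Cul4Ash (background 10.2%) and 1 lower (background 12.4%), with a median difference of 0.50 against 0.00 over all genes. Most of that difference lay in Cul4Ash: against NCsh, 20 were called lower and 2 higher in Cul4Ash (background 9.60% and 11.0%). In H1.2sh 7 were called higher and 2 lower against NCsh (background 7.28% and 8.15%). The count called higher was 22 to 25 with any single array left out and 19 without replicate 2 of both groups.

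Among the transporters, SLC6A9, which takes up glycine, had 7.88 and 7.91 in H1.2sh, against 5.82 and 5.73 in Cul4Ash and a mean of 7.37 in NCsh. H1.2sh was called above and Cul4Ash below NCsh, and the direct difference was 2.12 ± 0.08 (adjusted p = 5.96e-07, 4.36-fold). On Cul4Ash replicate 1 this probe was above background (detection p-value 0.00909) but close to the lowest such log2 intensity there (5.70), which limits how the fold can be read. A second SLC6A9 probe, not above background on either array with a detection p-value, gave -0.22. SLC7A5, the large neutral amino acid transporter, had 12.16 and 12.20 in H1.2sh, and 10.97 and 10.88 in Cul4Ash (1.26 ± 0.08, adjusted p = 4.86e-06). Its partner chain SLC3A2 differed by 0.42 ± 0.08, the glutamine carriers SLC1A5 and SLC38A2 by 0.51 ± 0.08 and 0.48 ± 0.09, and the cationic amino acid carrier SLC7A1 by 0.41 ± 0.07. Each of these was called higher, with H1.2sh arrays above the Cul4Ash arrays.

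Among the enzymes, ASNS, the asparagine synthetase, had 12.39 and 12.35 in H1.2sh, against 11.25 and 11.15 in Cul4Ash and a mean of 12.29 in NCsh (1.17 ± 0.08, adjusted p = 8.71e-06, 2.26-fold), with 1.05 from a second probe. CBS and CTH, the enzymes that carry sulphur from homocysteine to cysteine, differed by 1.16 ± 0.09 and 0.91 ± 0.08. In the serine pathway PSAT1 had 11.70 and 11.69 in H1.2sh, and 10.81 and 10.78 in Cul4Ash (0.90 ± 0.07, adjusted p = 2.48e-05), and SHMT2 and MTHFD2, which pass on its carbon in mitochondria, differed by 0.59 ± 0.07 and 0.60 ± 0.10. PHGDH, the entry enzyme of that pathway, had 13.40 and 13.34 in H1.2sh, and 13.37 and 13.38 in Cul4Ash, with the arrays of the 2 groups overlapping (95% interval of the difference -0.17 to 0.16, adjusted p = 0.984). PCK2, the mitochondrial enzyme that makes phosphoenolpyruvate, was higher by 1.08 ± 0.09 (adjusted p = 3.36e-05).

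Among regulators, ATF4 itself was higher by 0.42 ± 0.08 (13.59 and 13.64 in H1.2sh, 13.18 and 13.21 in Cul4Ash, adjusted p = 0.00391). DDIT4, an inhibitor of mTORC1, had 11.24 and 11.22 in H1.2sh, and 9.98 and 9.99 in Cul4Ash (1.24 ± 0.08, adjusted p = 8.71e-06). TRIB3, a pseudokinase that restrains ATF4, differed by 0.88 ± 0.09 and the transcription factor CEBPB by 0.79 ± 0.08. CHAC1, which breaks down glutathione, was not well above background in Cul4Ash and was at least 1.69-fold higher in H1.2sh (adjusted p = 0.00013). DDIT3 (CHOP) was an exception in form: it had 8.67 and 8.66 in H1.2sh, and 7.98 and 8.08 in Cul4Ash, and the departure from NCsh was in H1.2sh (0.81) more than in Cul4Ash (0.17). ATF3 was the 1 gene called lower (-0.26 ± 0.08, adjusted p = 0.0337), a call that was lost when any of the 4 arrays was left out.

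ASNS is the textbook case of a gene with a C/EBP-ATF response element, and its promoter is shown with that element, TGATGNAA, in capitals at -68 from the start (RefSeq, GRCh38.p14, 5′ to 3′ on the gene's strand).
ASNS, chr7:97872409-97872528, minus strand: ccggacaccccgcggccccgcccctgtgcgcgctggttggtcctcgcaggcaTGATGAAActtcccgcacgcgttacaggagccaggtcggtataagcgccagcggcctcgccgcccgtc
The letters TGATGNAA, on either strand of the 250 bases before the start, were present in 2 of 23 promoters of the genes called higher and in 3 of 30 of the measured list (10%), against 3.19% of all promoters. Elements outside this window were not searched.

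Counts in the lists below are to be read against the shares over all genes, 10.2% called higher in H1.2sh and 12.4% lower. Aminoacyl-tRNA synthetases, many of which ATF4 also drives, ran the same way with fewer calls. Of 18 measured, 7 were called higher and 1 lower (median 0.16). TARS1, the threonine enzyme, had 10.87 and 11.00 in H1.2sh, and 10.02 and 10.38 in Cul4Ash (0.74 ± 0.12, adjusted p = 0.00204). YARS1 for tyrosine differed by 0.65 ± 0.08 (adjusted p = 0.000354), MARS1 for methionine by 0.56 ± 0.07 (adjusted p = 0.000483) and NARS1 for asparagine by 0.42 ± 0.07 (adjusted p = 0.00252). MARS1 stood above NCsh in H1.2sh (0.64), whereas NARS1 stood below it in Cul4Ash (-0.39). The 1 gene called lower, QARS1 (-0.25 ± 0.07), lost its call without any of the 4 arrays. The count called higher was 5, 4, 5 and 4 without H1.2sh replicate 1, H1.2sh replicate 2, Cul4Ash replicate 1 and Cul4Ash replicate 2, and 3 without replicate 2 of both groups.

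Ribosome biogenesis factors, which process ribosomal RNA in the nucleolus, had 11 of 33 measured genes called higher in H1.2sh and 1 lower (median 0.16). LYAR, a nucleolar growth regulator, had 10.80 and 11.02 in H1.2sh, and 10.03 and 10.09 in Cul4Ash (0.85 ± 0.09, adjusted p = 0.000129). RRP12, needed for export of both ribosomal subunits, had 10.04 and 9.92 in H1.2sh, and 9.19 and 9.23 in Cul4Ash (0.77 ± 0.08, adjusted p = 0.0001). RRP9 differed by 0.47 ± 0.08. NHP2, a core protein of box H/ACA particles, was lower in H1.2sh (-0.60 ± 0.07, adjusted p = 0.000322), and its other 3 probes gave -0.51, -0.62 and -0.64. The count called higher was 5, 4, 5 and 5 without H1.2sh replicate 1, H1.2sh replicate 2, Cul4Ash replicate 1 and Cul4Ash replicate 2, 3 without replicate 2 of both groups, and 2 without normalization between arrays.

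Smaller shares of other lists for protein and RNA turnover were called. Proteasome subunits had 6 of 27 called higher and 0 lower, led by PSMD12 of the regulatory cap (0.50 ± 0.08, adjusted p = 0.0012), of which a second, dim probe gave -0.17. This count fell to 3, 3 and 3 without H1.2sh replicate 1, H1.2sh replicate 2 or Cul4Ash replicate 1, and to 0 without replicate 2 of both groups. Splicing factors had 7 of 47 called higher (14.9%, against 10.2% of all genes) and 2 lower (4.26%, against 12.4%), led by HNRNPA1 and SF3B4 (0.49 ± 0.08). Their count called higher was 3 without H1.2sh replicate 1, 3 without H1.2sh replicate 2 and 2 without replicate 2 of both groups. Cytosolic ribosomal proteins had 7 of 68 called higher, among them RPS7 (0.63 ± 0.08, second probe 0.69), and 1 lower, and 3 were called higher without replicate 2 of both groups. The share called higher was close to that over all genes (10.2%). Mitochondrial ribosomal proteins had 11 of 76 higher (14.5%) and 8 lower (10.5%), shares near the 10.2% and 12.4% of all genes, and leaving out any 1 of the 4 arrays cut these to 4 or 5 higher and 3 to 5 lower. MRPL10 was the most different of them (1.01 ± 0.08), but a second, dimmer probe gave -0.11.

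Of 24 heat shock genes 6 were called higher (25%) and 3 lower (12.5%, near the 12.4% of all genes). BAG3, the co-chaperone of HSP70, had 10.61 and 10.58 in H1.2sh, and 9.88 and 9.77 in Cul4Ash (0.77 ± 0.07, adjusted p = 8.55e-05), whereas HSPB1, the small heat shock protein HSP27, was lower (-0.60 ± 0.09, adjusted p = 0.00131). Of 20 genes of endoplasmic reticulum folding 4 were called higher (20%) and 2 lower (10%), led by the disulphide isomerase PDIA4 (0.70 ± 0.08) and DNAJB9 (0.53 ± 0.08). With any 1 of the 4 arrays left out, 3 or 4 heat shock genes and 2 or 3 of the endoplasmic reticulum genes were called higher. Both lower calls among the endoplasmic reticulum genes were lost without any 1 of the 4 arrays (0 called), and the heat shock genes called lower numbered 2, 1, 1 and 3 without H1.2sh replicate 1, H1.2sh replicate 2, Cul4Ash replicate 1 and Cul4Ash replicate 2. Of 17 NRF2 antioxidant genes 3 were called higher: HMOX1, ME1 and SRXN1 (0.55 ± 0.10), and 0 lower.

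Nuclear-encoded subunits of oxidative phosphorylation, the respiratory chain and ATP synthase of the inner mitochondrial membrane, ran towards Cul4Ash. Of 72 measured, 65 differences were negative, 21 genes were called lower in H1.2sh and 1 higher, with a median of -0.18. COX5B of complex IV had 12.53 and 12.44 in H1.2sh, against 13.05 and 12.95 in Cul4Ash and a mean of 12.59 in NCsh (-0.51 ± 0.08, adjusted p = 0.00158). NDUFA1 of complex I differed by -0.56 ± 0.08 and UQCR10 of complex III by -0.57 ± 0.10, with -0.45 and -0.44 from the other 2 probes of UQCR10. UQCR11, also of complex III, was the exception (8.74 and 8.67 in H1.2sh, 8.16 and 8.15 in Cul4Ash, 0.55 ± 0.08, adjusted p = 0.000788). Against NCsh, 23 were called higher and 0 lower in Cul4Ash (background 11.0% and 9.60%), and 3 higher and 2 lower in H1.2sh (background 7.28% and 8.15%). These small differences depended on the arrays and on scaling: 11, 9, 10 and 12 were called lower without H1.2sh replicate 1, H1.2sh replicate 2, Cul4Ash replicate 1 and Cul4Ash replicate 2, 3 without replicate 2 of both groups, 7 with median scaling and 11 without normalization.

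Glycolysis and hypoxia genes had 15 of 34 called lower in H1.2sh and 4 higher (median -0.22). The 4 include AK4, whose direction rests on 1 of its 4 probes and whose call was lost with the mean over them. BNIP3, a mitophagy receptor induced by HIF-1, had 10.68 and 10.72 in H1.2sh, against 11.56 and 11.76 in Cul4Ash and a mean of 11.88 in NCsh (-0.96 ± 0.09, adjusted p = 5.57e-05). The collagen hydroxylase subunit P4HA1 differed by -0.74 ± 0.09, and the glycolytic enzymes ALDOC and PFKL by -0.68 ± 0.09 and -0.63 ± 0.11. BNIP3, P4HA1 and ALDOC stood below NCsh in both depletions, by more in H1.2sh (-1.18, -1.04 and -0.89) than in Cul4Ash (-0.22, -0.30 and -0.21). Of these, only P4HA1 was called in Cul4Ash minus NCsh. PFKL had its NCsh mean (8.45) between the 2 depletions. NDRG1, a hypoxia-induced stress gene, went the other way (9.22 and 9.05 in H1.2sh, 8.28 and 8.07 in Cul4Ash, 0.96 ± 0.12, adjusted p = 0.000388) and was called below its NCsh mean of 9.48 in Cul4Ash. The count called lower was 8 without H1.2sh replicate 2, 11 and 10 without Cul4Ash replicate 1 and replicate 2, and 6 without replicate 2 of both groups.

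Genes of cholesterol and fatty acid synthesis had 11 of 27 called lower in H1.2sh and 3 higher (median -0.21). The sterol reductase TM7SF2 had 8.16 and 8.08 in H1.2sh, and 8.59 and 8.75 in Cul4Ash (-0.55 ± 0.09, adjusted p = 0.00145), and SC5D, ACAT2 and ACACA differed by -0.53, -0.46 and -0.39. SREBF1, which encodes the transcription factor SREBP1, was higher (0.44 ± 0.07, adjusted p = 0.00194). INSIG1, the SREBP retention protein, was lower than NCsh in both depletions (-0.84 in H1.2sh, -1.12 in Cul4Ash), and its direct difference of 0.29 lost its call without any of the 4 arrays. The list's count called lower was 6 without H1.2sh replicate 2, 6 without Cul4Ash replicate 1 and 0 without replicate 2 of both groups.

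p53 target genes had 14 of 25 called lower in H1.2sh and 3 higher (median -0.29). In 293T cells the T antigen binds p53, so these genes are read here as a list of names and not as a measure of p53. CDKN1A, which encodes p21, had 10.28 and 10.25 in H1.2sh, against 11.44 and 11.27 in Cul4Ash and a mean of 10.73 in NCsh, which lay between (-1.09 ± 0.08, adjusted p = 1.87e-05, 2.13-fold lower). PHLDA3, an inhibitor of AKT, had 6.71 and 7.09 in H1.2sh, and 7.54 and 7.57 in Cul4Ash (-0.65 ± 0.12, adjusted p = 0.0042). SPATA18, a mitochondrial quality control gene, was not well above background in H1.2sh and was at least 1.62-fold lower there (adjusted p = 0.000713). TP53I3 (0.61 ± 0.08) and SESN2 (0.64 ± 0.08) were higher, and SESN2 is also in the ATF4 list. The count called lower was 7, 8, 9 and 9 without H1.2sh replicate 1, H1.2sh replicate 2, Cul4Ash replicate 1 and Cul4Ash replicate 2, 6 without replicate 2 of both groups and 7 with median scaling.

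Cell cycle genes had few large differences. Of 51 genes of G2 phase and mitosis 10 were called lower in H1.2sh and 0 higher (median -0.17). CENPF, a kinetochore protein, had 9.21 and 9.26 in H1.2sh, against 10.18 and 10.17 in Cul4Ash and a mean of 9.13 in NCsh, so that it was Cul4Ash that departed (-0.94 ± 0.08, adjusted p = 4.47e-05). HMMR and CENPA, the centromeric histone H3, were both lower in H1.2sh (-0.56 ± 0.08 each), with -0.27 each from a second probe. The list's count was 5 without H1.2sh replicate 1, 5 without H1.2sh replicate 2, 4 without replicate 2 of both groups and 17 with detection asked on all 7 scanner arrays. Of 50 genes of DNA replication and S phase 5 were called higher and 2 lower (10% and 4%, against 10.2% and 12.4% of all genes). CDT1, whose protein the CUL4 ligase marks for breakdown in S phase, had 11.18 and 11.02 in H1.2sh, and 10.50 and 10.47 in Cul4Ash (0.61 ± 0.09, adjusted p = 0.00132). The list's count called higher was 1, 1, 2 and 2 without H1.2sh replicate 1, H1.2sh replicate 2, Cul4Ash replicate 1 and Cul4Ash replicate 2, and CDT1 kept its call in each.

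Genes of the matrix and the cytoskeleton held some of the larger differences. Of 39 measured genes of the extracellular matrix and adhesion 10 were called lower in H1.2sh and 1 higher. COL4A6, a basement membrane collagen, had 5.74 and 5.91 in H1.2sh, against 6.66 and 6.87 in Cul4Ash and a mean of 7.16 in NCsh (-0.94 ± 0.11, adjusted p = 0.000207). On H1.2sh replicate 1 its probe was above background (detection p-value 0.0286). Its level was close to the lowest such log2 intensity there (5.74), which limits how the difference can be read. FBLN1 (fibulin 1) differed by -0.87 ± 0.09, with -0.42 and -0.31 from its other probes, and FBN2 (fibrillin 2) by -0.69 ± 0.07. TIMP1, an inhibitor of matrix metalloproteinases, was higher (12.35 and 12.32 in H1.2sh, 12.01 and 11.92 in Cul4Ash, 0.37 ± 0.08). The count called lower was 7 to 10 with any single array left out and 8 without replicate 2 of both groups. Of 32 actin and contractile genes 4 were called higher, DIAPH1 among them, and 7 lower, ACTA2 among them (12.5% and 21.9%, against 10.2% and 12.4% of all genes). TPM1 and TPM2, tropomyosins that line actin filaments, differed in opposite directions: TPM1 had 8.79 and 8.68 in H1.2sh, and 9.64 and 9.53 in Cul4Ash (-0.85 ± 0.08), and TPM2 had 10.32 and 10.17 in H1.2sh, and 9.31 and 9.32 in Cul4Ash (0.93 ± 0.09). With any 1 of the 4 arrays left out, 2 of the actin and contractile genes were called higher and 4 to 6 lower.

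Interferon-stimulated genes had 8 of 29 called lower in H1.2sh and 2 higher. IFITM1, a membrane protein that blocks virus entry, had 6.20 and 6.13 in H1.2sh, where it was not well above background, against 7.21 and 7.43 in Cul4Ash and a mean of 7.33 in NCsh (at least 2.23-fold lower, adjusted p = 2.66e-05). IFI6 differed by -0.65 ± 0.08, with -0.41 from its second probe, and IFITM2 by -0.65 ± 0.09. IFI35 went the other way (0.46 ± 0.09). The count called lower was 7, 6, 6 and 5 without H1.2sh replicate 1, H1.2sh replicate 2, Cul4Ash replicate 1 and Cul4Ash replicate 2, and 3 without replicate 2 of both groups.

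Immediate early genes and feedback regulators of the ERK pathway had 5 of 24 called higher and 6 lower. MYC had 10.25 and 10.23 in H1.2sh, and 9.58 and 9.55 in Cul4Ash (0.67 ± 0.07, adjusted p = 0.000186, second probe 0.94), and the MAP kinase feedback inhibitor SPRY1 had 8.79 and 8.73 in H1.2sh, and 9.54 and 9.42 in Cul4Ash (-0.72 ± 0.08, adjusted p = 0.000146). The AP-1 genes JUN and JUND were lower, by -0.51 ± 0.08 and -0.69 ± 0.08. With any 1 of the 4 arrays left out, 2 or 3 of this list were called higher and 4 or 5 lower. Of 29 Polycomb and DNA methylation genes 6 were higher and 2 lower, with 3, 2, 3 and 5 higher without H1.2sh replicate 1, H1.2sh replicate 2, Cul4Ash replicate 1 and Cul4Ash replicate 2. CBX6 (0.91 ± 0.11) and PCGF6 (0.84 ± 0.09, other probes 0.66 and 1.04), both of Polycomb repressive complex 1, led the first, and JARID2 of Polycomb repressive complex 2 (-0.61 ± 0.08) the second. Neuronal and neurofilament genes had 2 of 23 higher, NEFM and CRMP1 (0.65 ± 0.08), and 3 lower, with the neurofilament subunit INA at -0.79 ± 0.08. These shares (8.7% and 13%) were near those over all genes. CRMP1 was close to background, with the same detection p-value (0.0169) on replicate 1 of both groups. This limits how its difference can be read. Of 18 TGF-beta and BMP targets the inhibitory SMADs parted, SMAD7 at 0.57 ± 0.09 (second probe 0.15) and SMAD6 at -0.49 ± 0.08. Of 5 measured PAF1 complex genes 1 was called, LEO1 (0.38 ± 0.10), a call lost without H1.2sh replicate 1 or without either Cul4Ash array.

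**Figure D4:**
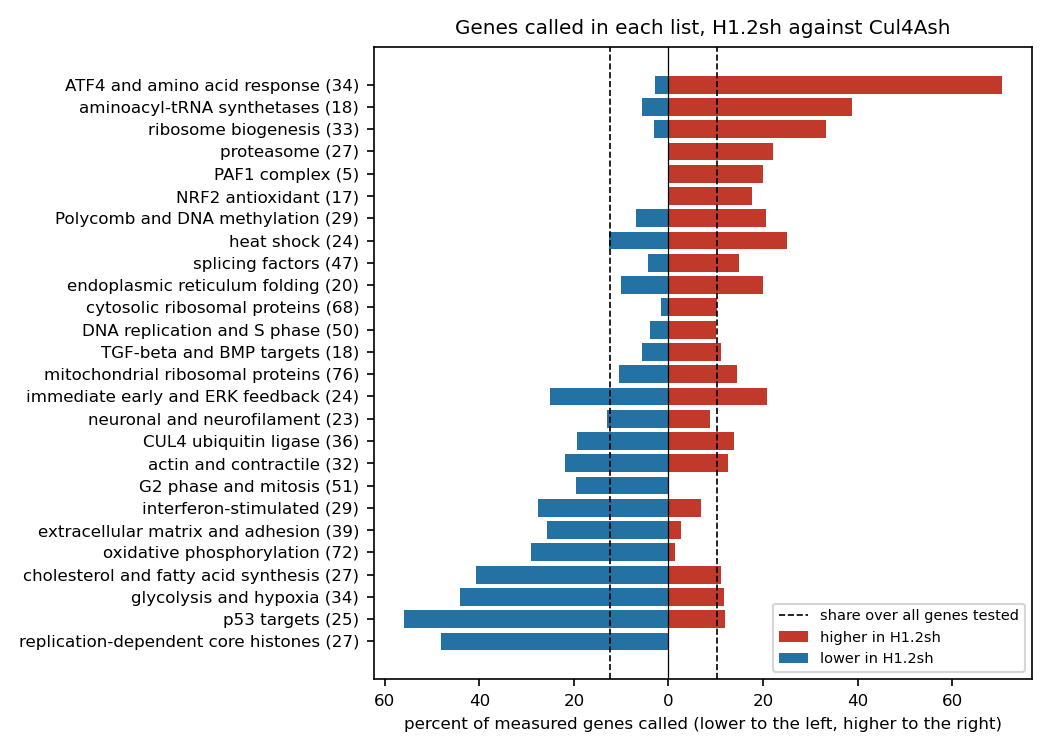
Percent of the measured genes of each list called higher in H1.2sh (red, to the right) and lower in H1.2sh (blue, to the left) relative to Cul4Ash, with the number measured in parentheses; dashed lines mark the shares over all genes, 10.2% higher and 12.4% lower. ATF4 and amino acid response genes reach 70.6% on the right, and p53 targets (56%) and core histones (48.1%) reach farthest to the left. Lists were chosen with earlier results of these data known.

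The direct difference does not say which depletion departed from control cells, so each comparison's own values against NCsh are set beside it. H1.2sh minus NCsh had 896 genes called higher (7.28%) and 1003 lower (8.15%), and Cul4Ash minus NCsh had 1358 higher (11.0%) and 1181 lower (9.60%). Both use the same NCsh arrays. In 26 genes H1.2sh was called higher and Cul4Ash lower, and in 73 genes H1.2sh was called lower and Cul4Ash higher. All 99 were called in the direct comparison. That was bound to follow, as the direct difference is the first of these differences less the second, with the same standard error. Besides SLC6A9 and HMOX1, the first group held PRAME, a tumour antigen and cullin receptor (9.49 and 9.43 in H1.2sh, 8.28 and 8.21 in Cul4Ash, 1.22 ± 0.08, adjusted p = 4.86e-06, second probe 0.96). It also held LASP1, an actin-binding protein (1.09 ± 0.08), TNPO1, the nuclear import receptor transportin 1 (1.02 ± 0.07, other probes 0.94 and 0.32), POLR3B, the second largest subunit of RNA polymerase III (1.01 ± 0.07), and the teneurin TENM1 (0.89 ± 0.11).

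In the other direction, H2AC18, TYMSOS, CHCHD6, SLC44A1, H2BC5, H2AC19, RPRML and GPC3 had the largest direct differences. TYMSOS was at -0.99 in H1.2sh minus NCsh and at 1.00 in Cul4Ash minus NCsh. CHCHD6 was at -1.49 and 0.46 in the same comparisons, so that H1.2sh carried most of its difference. RPRML was at -0.87 and 0.83.

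Some genes departed from the control cells alike in both depletions. In 10 genes both changed at least 2-fold the same way against NCsh, and 2 of these were called in the direct comparison, RHOC (0.26 ± 0.08, adjusted p = 0.0431) and ID3 (0.30 ± 0.07, adjusted p = 0.0174). The RHOC call was lost without any of the 4 arrays, and that of ID3 without either H1.2sh array or Cul4Ash replicate 2. ID3, an inhibitor of basic helix-loop-helix factors, had 10.58 and 10.58 in H1.2sh, against 10.32 and 10.24 in Cul4Ash and a mean of 9.06 in NCsh. EMILIN2, a matrix glycoprotein, had 8.99 and 8.97 in H1.2sh, 8.87 and 8.81 in Cul4Ash and a mean of 7.40 in NCsh, with a direct difference of 0.14 (95% interval -0.04 to 0.32). The actin regulator WASF3 had 8.38 and 8.33 in H1.2sh, 8.30 and 8.17 in Cul4Ash and a mean of 9.39 in NCsh (0.12 ± 0.08, adjusted p = 0.314). The synaptic vesicle protein SYP (0.16 ± 0.10) and the glycosyltransferase MGAT3 (0.26 ± 0.09, adjusted p = 0.0671) were likewise below NCsh in both and not called directly. RAB11FIP4 and WNK4 were also below NCsh in both, but were not above background in either depletion, so their direct difference cannot be read.

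Depletion of PAF1 shares no array with the direct comparison when set against NCsh. Across 12300 genes the log2 difference of H1.2sh minus Cul4Ash had a Pearson correlation of -0.04 and a Spearman correlation of -0.03 with that of PAF1sh minus NCsh. Genes are not independent replicates, and no p is given. Of the 2781 genes called in H1.2sh minus Cul4Ash, 247 were higher in both comparisons and 425 lower in both. Another 384 were higher in H1.2sh and called lower in PAF1sh, and 408 were lower in H1.2sh and called higher in PAF1sh. Over all genes 19.0% were called higher and 19.9% lower in PAF1sh minus NCsh.

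Position along the chromosomes was examined with the gene order of RefSeq (GRCh38.p14). The neighbours of CUL4A on chromosome 13 tended to the opposite side of CUL4A itself. Of 18 measured neighbours, 10 before and 8 after it, 9 were called lower in H1.2sh (12.4% over all genes) and 0 higher (10.2% over all genes), 2 had positive differences, and the median was -0.23. LAMP1, the lysosomal membrane protein encoded next to CUL4A, was lower by -0.85 (adjusted p = 4.99e-05), with -0.32 in H1.2sh minus NCsh and 0.53 in Cul4Ash minus NCsh. SLC9D1 was at -0.80 (adjusted p = 0.000375) and GAS6, a ligand of TAM receptor kinases, at -0.47 (adjusted p = 0.00253). SLC9D1 was at -0.31 in H1.2sh minus NCsh and at 0.49 in Cul4Ash minus NCsh. LAMP1 and SLC9D1 thus departed more in Cul4Ash, whereas the other 7 of the 9 departed more in H1.2sh, GAS6 by -0.30 there and by 0.16 in Cul4Ash. The neighbours of H1-2 on chromosome 6 had 1 of 20 called higher and 4 lower, against 10.2% and 12.4% of all genes, with a median of -0.10.

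Chromosome 13 as a whole had 49 of 225 genes called lower (21.8%) and 17 higher (7.56%), with a median of -0.06. Chromosome 12 had 125 of 633 called higher (19.7%) and 45 lower (7.11%), with a median of 0.07. The stretch of 25 measured genes with the lowest median ran from SOX21 to EFNB2 on chromosome 13. In it 14 genes were called lower and 0 higher, and the median was -0.29 in H1.2sh minus Cul4Ash, -0.30 in H1.2sh minus NCsh and -0.02 in Cul4Ash minus NCsh. The stretch with the highest median ran from BCL7A to TMED2 on chromosome 12, with 10 genes called higher and 0 lower and a median of 0.24, beside 0.12 in H1.2sh minus NCsh and -0.10 in Cul4Ash minus NCsh. Both stretches were picked by their values and carry no test, and DNA copy number of the cultures was not tested.

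**Figure D5:**
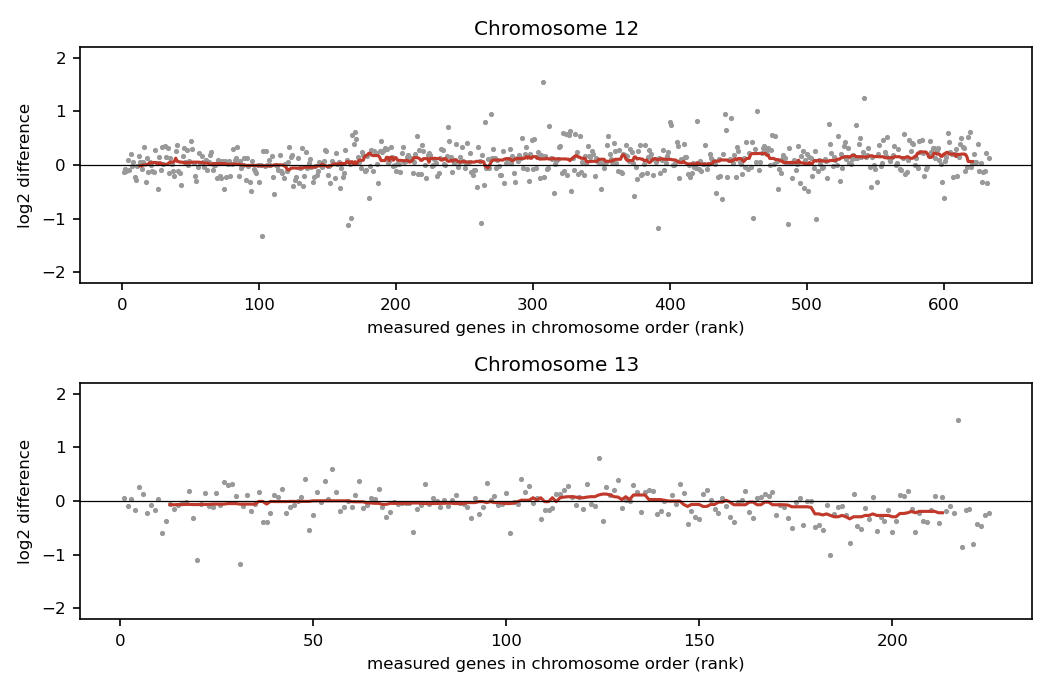
Log2 difference (H1.2sh minus Cul4Ash, vertical axis) of the measured genes of chromosome 12 (top) and chromosome 13 (bottom) by rank along the chromosome (horizontal axis); grey points are genes and the red line is the running median of 25 genes. The line lies above 0 for much of chromosome 12 and below 0 near the end of chromosome 13, where CUL4A is the point at 1.52.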

How the data were processed

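Total RNA (TRIzol) was copied with an Ambion MessageAmp kit and hybridised to Illumina bead arrays, per the labels' protocols; no label names the array software or background method. Linear intensity values deposited by the authors, set against scanner signals over 400 units, are those signals less a near-constant amount per array. This does not hold for all dim probes. In Cul4Ash the main SLC6A9 probe, above background on replicate 1, had lower intensity values than the second, which was not. The authors also deposited scanner intensities with a detection p-value per probe. Of these, 2 sample columns were empty, and 2 had names that disagree with the matrix and stayed unassigned. The deposited detection p-values cover 7 arrays, and 1 of the H1.2sh arrays has its own. Probes (47220) were named from the platform annotation: 30109 had 1 gene symbol, 8 several and 17103 none, and 30070 looked up by Entrez ID changed no symbol. The 66 probes without a value on an array were left out.

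After a log2 transform, matrix values were quantile normalized over 8 arrays. Probes with a detection p-value under 0.05 on at least 2 of 7 scanner arrays were kept (22131, of which 16305 had 1 gene), and the brightest per gene gave 12300 genes. limma 3.58.1 in R 4.3.3 fitted 4 group means (lmFit, eBayes), with Benjamini-Hochberg adjustment over all genes; PAF1sh and NCsh arrays add to the spread. SE is limma's moderated standard error. The number of arrays (2 per group) limits the precision. A gene not well above background in a group has a fold given as a bound ("at least"), from detection on the group's array with a detection p-value. For the genes named this bound is the measured fold. It makes no allowance for background in the dim group or for the spread between arrays.

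Named genes were the targets, the 15 highest and 15 lowest called differences without overlap, up to 4 and 2 called genes per list and direction, and up to 8 genes called in opposite or in the same direction against NCsh. Other genes that complete a count or show an exception were chosen after their values were seen. Members and gene lists were chosen with earlier results of these data known. Promoters are those of the first listed start in RefSeq (GRCh38.p14). Same-numbered H1.2sh and Cul4Ash arrays did not deviate together (r = 0.015, between -0.13 and 0.11 over all pairs of groups), so replicate numbers were not used as pairs. Alternatives covered normalization, arrays in the fit, a replicate block, single arrays left out, the detection filter, background correction (normexp, neqc), the probe rule and an intensity trend.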

Additional observations from a re-analysis of the deposited data

How the results depend on the processing

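Of the 2781 genes called in H1.2sh minus Cul4Ash, between 2775 and 2781 kept their direction under each alternative that tested all of them, and 2565 of 2565 did so where detection on all 7 scanner arrays was asked. No called difference of a named gene reversed under an alternative that was run. The number of calls depended on the setting. It was 1707 (705 higher, 1002 lower) with median scaling and 1755 (431 higher, 1324 lower) without normalization, a setting in which the median over genes was -0.07. The share of calls that were higher was 45.2% after quantile normalization, 41.3% with median scaling and 24.6% without normalization. Without the filter on detection it was 1820 (776 higher, 1044 lower), with 20038 genes tested. With 1 array left out, or replicate 2 of both groups, calls ranged from 868 to 1679, higher calls from 351 to 728, lower calls from 517 to 951 and calls of at least 2-fold from 110 to 120. Without H1.2sh replicate 2 the counts were 1455 (612 higher, 843 lower). In the fit without replicate 2 of both groups each lone array is assumed to vary like the other groups. Normexp with an offset of 16 gave 185 calls of at least 2-fold, against 114. On the 5 scanner arrays whose names match those in the matrix, limma after neqc with its default offset called 0 genes in all (0 higher, 0 lower, 0 of at least 2-fold), with 2697 at an unadjusted p under 0.05. With an offset of 50 it called 846 (357 higher, 489 lower), and the matrix values of the same 5 arrays gave 817 (338 higher, 479 lower). These 5 arrays leave 1 residual degree of freedom. With replicate number as a replicate block 2488 genes were called (1111 higher, 1377 lower) and 7 of 166 named genes lost their call. Of the 166 named genes, some of which were not called, 147 stayed on the same side of the threshold with median scaling, 135 without normalization and 111 without replicate 2 of both groups. Of 65 other probes of 52 named genes, 52 had the sign of the probe used. Where the cause of a changed count is not named here, it was not tested.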
